A study of Mus musculus with 12 samples.

Results

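The comparison described here set cardiac mesoderm that carried a record of Foxa2 expression against cardiac mesoderm that did not, within mouse embryos at stage E7.25. It used 6 of the 12 libraries of the series, chosen by their titles: 3 of the YFP-positive fraction and 3 of the YFP-negative fraction. All embryos, the controls included, were of the line Foxa2Cre:Rosa26-YFP, in which Cre recombinase driven from Foxa2 switches on a yellow fluorescent protein (YFP) reporter. The labels call the YFP-positive cells ventricular cardiac mesoderm and the YFP-negative cells non-ventricular cardiac mesoderm. The other 6 libraries, 3 of EPCAM-positive endoderm and 3 of KDR-positive hematopoietic mesoderm from the same line, entered the model and served as reference levels. The labels do not say how many embryos were pooled, or whether replicates came from separate embryos, so the p-values measure the spread between these samples, which may be technical. All libraries were made from total RNA of sorted cells with a kit for very small inputs.

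Foxa2 is a forkhead transcription factor of definitive endoderm, node and anterior primitive streak. Cre acts permanently on the reporter, so YFP marks a past or present expression of Foxa2 and not its level at the time of sorting. Cardiac mesoderm leaves the primitive streak through a Mesp1-expressing state, takes on Pdgfra and Kdr, and then activates heart regulators such as Gata4, Hand1, Tbx5 and Tbx20. Endoderm lies beside this mesoderm at this stage and is a known source of secreted antagonists of Nodal, BMP and Wnt signals.

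Foxa2 itself (ENSMUSG00000037025, chromosome 2, 148042877 to 148046969, minus strand, GRCm38) was nearly silent in both fractions. It stood at 0.416, 0 and 5.92 CPM (counts scaled to library size, with trimmed-mean scaling) in YFP-positive replicates 1, 2 and 3, and at 0 in each of the 3 YFP-negative libraries. Only YFP-positive replicate 3 was above the floor of 3 counts, which corresponds to 0.420 to 0.624 CPM in these 6 libraries. The mean of the YFP-positive fraction was at least 4.67-fold higher against that floor, with an edgeR adjusted p of 0.626 and a DESeq2 adjusted p of 0.0439. Endoderm averaged 57.8 CPM. Without replicate 3 both remaining YFP-positive libraries were under the floor and no fold can be given. In bulk libraries a smaller number of cells that express a gene and less RNA per cell cannot be told apart.

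Markers of cardiac mesoderm were present in both fractions. Of 7 such markers, 5 had a higher and 2 a lower level with YFP, and 1, Gata4, did not overlap between the fractions. Pdgfra, a growth factor receptor of early mesoderm, measured 344, 372 and 362 CPM in the YFP-positive libraries and 204, 330 and 387 in the YFP-negative ones, against 13.8 in endoderm. Kdr, the VEGF receptor of cardiac, vascular and blood precursors, measured 522, 622 and 475 CPM against 488, 540 and 444. Mesp1, the early regulator of the cardiac lineage, measured 11.4, 19.9 and 54.0 CPM against 38.9, 26.5 and 47.7. The 3 genes overlapped between the fractions, with log2 differences of 0.23, 0.14 and -0.40 in this order. Hand1, a heart and extraembryonic mesoderm regulator, stood at 384, 319 and 303 CPM against 356, 306 and 336. The summed level of 7 cardiac mesoderm markers ran from 1648 to 1722 CPM in the YFP-positive fraction and from 1338 to 1534 in the YFP-negative fraction, while endoderm reached at most 184. Hematopoietic mesoderm stood at 810, 988 and 1703, so this sum sets the fractions apart from endoderm but not from every hematopoietic library. Pdgfra averaged 27.2 CPM in hematopoietic mesoderm and Mesp1 0.218, both below each cardiac mesoderm library. Tbx5 measured 20.2, 85.5 and 71.1 CPM against 0, 4.90 and 30.0, so it was at 0 in YFP-negative replicate 1. Of the ventricular and sarcomere genes, Acta2, Mybpc3, Myh6 and Tnnc1 were at 0 in all 6 libraries, and 16 of 27 first heart field, ventricular and sarcomere genes were high enough to test.

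Markers of other cell types were unequal among the replicates. The 7 visceral endoderm markers summed to 21.4, 63.6 and 41.8 CPM in the YFP-positive libraries and to 10.6, 5.18 and 6.52 in the YFP-negative ones, against 1569 to 4667 in endoderm. By mean, 6 of these markers had a higher level with YFP and 1 a lower level. Amn was at 0 in all YFP-negative libraries and at 0, 0 and 0.185 CPM in the YFP-positive ones. Apob alone made up 8.74, 59.8 and 28.9 CPM of the YFP-positive sums and 4.19, 3.22 and 3.04 of the YFP-negative ones. The 6 endoderm markers summed to 82.8, 67.3 and 175 CPM against 93.2, 44.6 and 108, with 3 higher and 3 lower. Within this class Sox17 stood at 33.5 CPM in YFP-positive replicate 1 and at most at 1.67 in the other 5 libraries, while Cdh1 stood at 59.2 in YFP-positive replicate 3 and at 55.6 in YFP-negative replicate 3. The 7 hematopoietic and endothelial markers summed to 25.4, 322 and 113 CPM against 165, 169 and 98.1, so that the spread lay within the YFP-positive fraction. Gene counts totalled 5004024 to 5629572 in the YFP-positive and 5756722 to 7111602 in the YFP-negative libraries.

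Fewer genes were detected in the YFP-positive libraries. Genes with at least 1 count numbered 14242 ± 517 (SD, n = 3) in the YFP-positive fraction, from 13671 to 14677, and 15675 ± 368 in the YFP-negative fraction, from 15356 to 16078. The ranges did not overlap, and the exact two-sided permutation p was 0.1, the smallest that 3 against 3 libraries allow. After random thinning of every library to 4472800 counts the numbers were 14003 ± 419 and 15230 ± 400, again without overlap. With at least 5 counts required, they were 11830 ± 326 and 13218 ± 321. What part of this difference comes from the amount of input RNA was not tested.

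Across 14170 tested genes, 0 passed an adjusted p of 0.05 in the edgeR quasi-likelihood test, so no single gene met the main criterion for a difference. At an unadjusted p under 0.05, edgeR listed 386 higher and 676 lower genes, 2.72% and 4.77% of those tested and 7.49% together. DESeq2 called 35 higher and 73 lower, 0.247% and 0.515%, together 0.762%, and limma voom with library quality weights called 0, with 898 at an unadjusted p under 0.05. The excess of lower over higher genes at the unadjusted threshold varied with the fit. Higher genes made up 36.3% in the main model, 37.6% without an expression filter, 47.0% once a mean of 5 CPM was required and 51.9% when the 6 cardiac mesoderm libraries were fitted alone.

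A second count took the genes whose 3 libraries of one fraction all lay above all 3 of the other, with at least 5 CPM in each library of the higher fraction. By this count 612 genes, 4.32%, were higher in every YFP-positive library and 625, 4.41%, were lower, together 8.73%. The count involved no test. Without any difference between the fractions, 3 against 3 libraries separate by chance in 10% of genes when no minimum level is set. The minimum of 5 CPM changes that share, so it cannot be set directly against 8.73%. How many of the counted genes separated by chance was not tested. The directions differed in level and size. The higher genes were mostly well expressed genes with small differences, at a median of 115 CPM against 70.2 and a median log2 fold change of 0.66. The lower genes had a median of 16.7 CPM with YFP and 44.3 without it, and a median log2 fold change of -1.27. A difference of at least 8-fold was seen for 27 of the higher and 57 of the lower genes. At least 1 library of the lower-expressing fraction held 3 counts or fewer for 21 of the 612 higher genes, 3.43%, and for 115 of the 625 lower genes, 18.4%. Genes with a lower level in YFP-positive libraries were thus more often near 0 there. Most genes of either direction still had more than 3 counts in every library. The floor of 3 counts lay at 0.547 to 0.624 CPM in the YFP-positive and 0.420 to 0.503 CPM in the YFP-negative libraries. The difference between the directions was not tested.

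**Figure D1:**
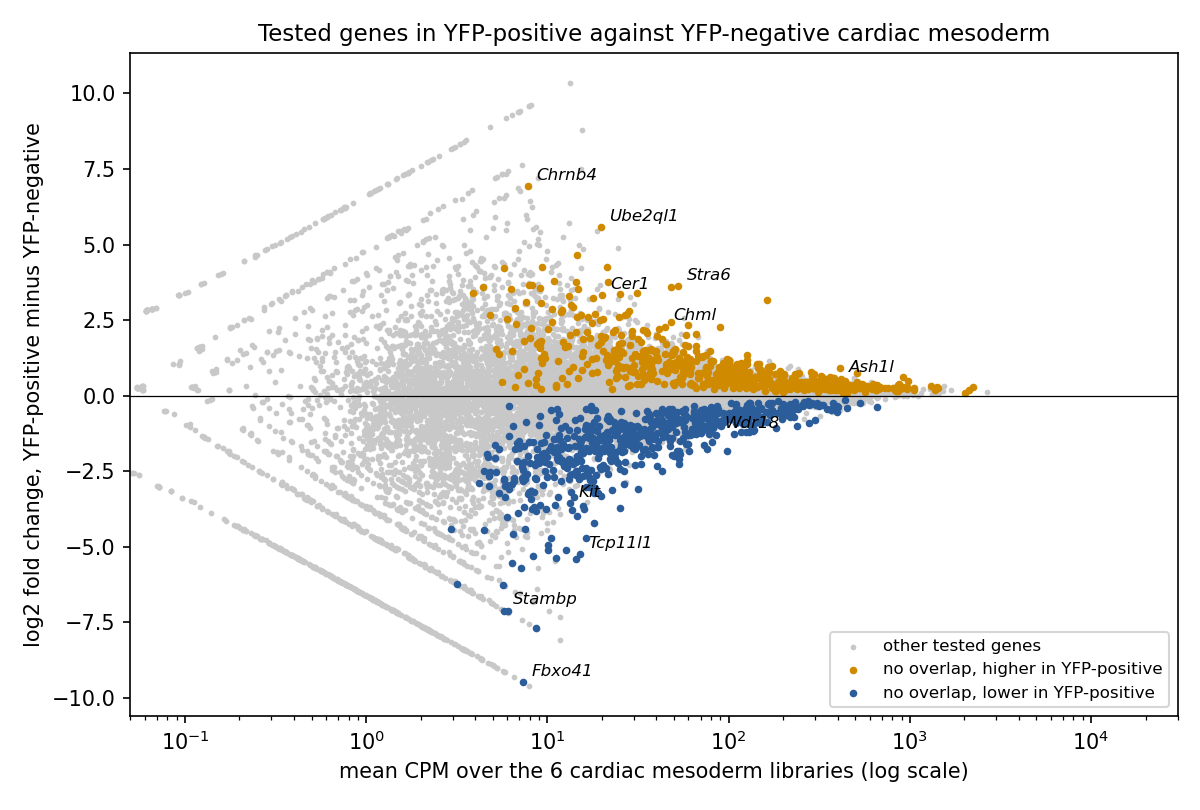
Log2 fold change (YFP-positive minus YFP-negative) of the 14170 tested genes against their mean level over the 6 libraries in CPM on a log axis; coloured points are the 612 higher and 625 lower genes whose libraries do not overlap. Higher genes crowd at high levels and small differences, and Tcp11l1, Fbxo41 and Stambp lie among the lower genes with the widest differences.

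Endoderm and hematopoietic mesoderm, whose libraries took no part in forming these groups, gave a second readout. Of the 612 genes higher with a Foxa2 history, 33, or 5.39%, were called higher in endoderm than in hematopoietic mesoderm by edgeR, beside 457, or 3.23%, of all tested genes. In the same group 47, or 7.68%, were called higher in hematopoietic mesoderm, beside 343, or 2.42%, of all. Of the 625 lower genes, 20 (3.2%) were called higher in endoderm and 22 (3.52%) in hematopoietic mesoderm. The shares of the higher group were above those of all genes for both cell types, and the groups were not matched for level. The 457 endoderm genes together made up 18474, 18825 and 20568 CPM in the YFP-positive libraries and 15107, 16760 and 17556 in the YFP-negative ones. The 343 hematopoietic genes likewise summed higher in each YFP-positive library, at 117929, 115217 and 109831 CPM against 107145, 107913 and 104480. All tested genes together summed to 1038654, 1023295 and 1031297 CPM on this scale against 961726, 993678 and 972969. The scaling factors set these totals, so they measure no difference in expression, and the sums of the 457 and 343 genes carry the same offset.

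Cer1 and Apob had the lowest p-values among the higher genes, and both are also endoderm genes. Cer1 (ENSMUSG00000038192, chromosome 4, 82881751 to 82885148, minus strand, GRCm38) encodes the secreted antagonist Cerberus, which binds Nodal and BMP ligands. It measured 31.2, 10.4 and 67.7 CPM in the YFP-positive libraries and 2.35, 4.76 and 3.77 in the YFP-negative ones. The level varied among the YFP-positive replicates but never reached down to the YFP-negative range. The log2 fold change was 3.32 ± 0.57 (SE), with an edgeR adjusted p of 0.479 and a DESeq2 adjusted p of 1.54e-06. Without YFP-positive replicate 3, the library that held Foxa2 reads, the log2 fold change of Cer1 was 2.50. Its YFP-positive mean was 8.95% of the endoderm mean of 407 CPM.

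Apob (chromosome 12, 7977648 to 8016835, plus strand) encodes the lipoprotein scaffold that visceral endoderm makes in quantity. It measured 8.74, 59.8 and 28.9 CPM against 4.19, 3.22 and 3.04. Here replicate 2 was the highest, not replicate 3, so Cer1 and Apob did not rank the YFP-positive libraries alike. The log2 fold change was 3.22 ± 0.56, with an edgeR adjusted p of 0.479 and a DESeq2 adjusted p of 0.000231. Its YFP-positive mean was 1.93% of the endoderm mean of 1680 CPM. Cubn, the endocytic receptor of visceral endoderm, looked at as a marker, measured 6.45, 3.28 and 7.96 CPM against 1.17, 0.981 and 0.869. The plasma protein markers Apoa1, Ttr and Afp were at 4.58 CPM or less in all 6 libraries. Apoa1 measured 4.58, 0.182 and 1.67 CPM against 0.670, 0.280 and 0.435. Whether endoderm cells or their RNA in the YFP-positive sort gave these levels was not tested. In edgeR Cer1 passed when YFP-positive replicate 2 was left out (adjusted p = 0.0166) and Apob when replicate 1 was (adjusted p = 0.0118).

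The proximal promoters of Cer1 and Apob are shown because, among the 12 higher and 12 lower genes, only these held a forkhead motif in a promoter entry. The motif searched was TGTTTAC or TGTTTGC on either strand, in 250 bases before to 50 bases after the start. Both sequences are the 250 bases before the start from RefSeq (GRCm38.p6), read 5′ to 3′ on the gene's strand, with TGTTTGC or its reverse complement GCAAACA in capitals.
Cer1 (chr4:82885152-82885401, minus strand): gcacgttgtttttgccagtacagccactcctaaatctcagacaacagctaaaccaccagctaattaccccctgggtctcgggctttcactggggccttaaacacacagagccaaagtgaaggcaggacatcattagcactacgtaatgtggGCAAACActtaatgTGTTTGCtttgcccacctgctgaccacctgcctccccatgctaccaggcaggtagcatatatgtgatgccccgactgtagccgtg
Apob (chr12:7977427-7977676, plus strand): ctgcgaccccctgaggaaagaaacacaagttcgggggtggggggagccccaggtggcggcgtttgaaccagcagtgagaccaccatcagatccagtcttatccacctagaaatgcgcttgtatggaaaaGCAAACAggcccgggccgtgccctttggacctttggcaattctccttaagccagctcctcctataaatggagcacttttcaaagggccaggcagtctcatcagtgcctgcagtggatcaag
The Cer1 sequence holds an inverted pair whose first bases lie 99 and 85 bases before the start, and the Apob sequence holds 1 match at 121 bases. A match occurred in 2 of the 10 higher named genes with an entry, in 0 of the 11 lower ones, and in 2560 of 27025 genes, 9.47%. A match describes these letters only and shows no binding.

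Stra6, Ube2ql1 and Heph were also called higher in endoderm than in hematopoietic mesoderm, and their YFP-positive means were above the endoderm means. Stra6, the membrane receptor through which cells take up retinol, measured 107, 90.8 and 95.5 CPM in the YFP-positive libraries and 4.52, 15.7 and 3.33 in the YFP-negative ones. Its level was even among the YFP-positive replicates and was above the endoderm mean of 31.5 CPM, so that it amounted to 310% of that mean. The log2 fold change was 3.63 ± 0.77 (edgeR adjusted p = 0.626, DESeq2 adjusted p = 2.38e-05). Ube2ql1, a member of the ubiquitin-conjugating enzyme family, measured 68.1, 9.66 and 38.3 CPM against 0.503, 0.140 and 1.74. Chrnb4, a nicotinic acetylcholine receptor subunit, measured 8.32, 30.1 and 8.14 CPM against 0.335, 0 and 0, at least 34.3-fold higher against the floor. Heph, the iron-oxidizing enzyme hephaestin, measured 28.3, 50.5 and 69.0 CPM against 4.52, 10.9 and 5.79. In all 4 genes the YFP-positive mean was above the endoderm mean, but not every library was. Ube2ql1 in YFP-positive replicate 2 was under its endoderm mean of 11.5 CPM, and Heph in replicate 1 under its mean of 37.3. These genes were chosen for high YFP-positive levels.

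Among the remaining higher genes, Synrg, a partner of the clathrin adaptor AP-1, measured 15.4, 94.4 and 32.9 CPM against 9.89, 7.71 and 4.35, with replicate 2 far above the others. Its log2 fold change of 2.70 dropped to 1.72 without that library. Chml, a Rab escort protein, measured 93.0, 50.5 and 79.6 CPM against 14.6, 9.95 and 21.1. Ranbp17, a nuclear transport receptor, had a log2 fold change of 2.01 and Ppp2r5c, a regulatory subunit of phosphatase PP2A, one of 1.19. Smaller differences were seen in 2 abundant genes, Rsrc2 (482, 456 and 442 CPM against 343, 308 and 272) and the histone methyltransferase gene Ash1l (468, 443 and 577 against 335, 340 and 333). DESeq2 called 10 of these 12 higher genes, all but Rsrc2 and Ash1l, and limma voom called 0. Endoderm exceeded the YFP-positive mean in 3 of the 12, Cer1, Apob and Synrg. The 12 were chosen for high YFP-positive levels, so a lower endoderm mean is partly set by that choice.

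Among the lower genes, Tcp11l1 and Kit came first. Tcp11l1 (chromosome 2, 104657288 to 104712169, minus strand) measured 0.416, 1.46 and 0.370 CPM in the YFP-positive libraries and 46.1, 23.4 and 18.7 in the YFP-negative ones, which gave -5.25 ± 0.96 on the log2 scale (edgeR adjusted p = 0.503). It averaged 26.5 CPM in endoderm and 26.0 in hematopoietic mesoderm, so the YFP-positive mean was the lowest of the 4 cell types. Kit (chromosome 5, 75574916 to 75656722, plus strand), the receptor tyrosine kinase for stem cell factor, measured 0.832, 0.547 and 4.81 CPM against 13.9, 30.1 and 29.5. Its means were 144 CPM in endoderm and 120 in hematopoietic mesoderm. The log2 fold change of Kit was -3.55 ± 0.71 (edgeR adjusted p = 0.626, DESeq2 adjusted p = 2.17e-05) and -5.12 without YFP-positive replicate 3. Kitl, the gene for its ligand, was also lower in each YFP-positive library, with 12.1, 9.11 and 9.44 CPM against 42.4, 12.6 and 17.1. The gap for Kitl was narrow, at a log2 difference of -1.23 (edgeR adjusted p = 0.785).

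Several lower genes serve membrane traffic and lipid handling. Exoc8, a subunit of the exocyst that tethers secretory vesicles, measured 3.75, 5.65 and 1.30 CPM against 21.3, 70.3 and 48.5. Sec22b, a SNARE protein of transport between endoplasmic reticulum and Golgi, measured 33.9, 52.1 and 37.4 against 119, 102 and 139. Acap3, a GTPase-activating protein for Arf proteins, measured 3.12, 2.73 and 2.22 against 23.6, 26.3 and 23.3. Acap3 was even within each fraction, while Exoc8 spread widely in both. Lpcat4, a lysophospholipid acyltransferase, measured 23.1, 15.3 and 28.9 CPM against 71.6, 90.5 and 92.3. This grouping was made after the values were seen and no list of traffic genes was counted.

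Cytoskeletal and other genes completed the 12 lower ones. Sept9, a septin, measured 24.8, 35.5 and 43.9 CPM against 185, 102 and 65.8, and Mtcl1, a microtubule crosslinker, 11.4, 27.7 and 16.1 against 62.3, 138 and 62.4. Wdr18, a WD-repeat protein of ribosome assembly, measured 52.9, 43.7 and 51.3 against 124, 131 and 107. Fbxo41, an F-box gene, was at 0 in all YFP-positive libraries and at 9.72, 13.0 and 21.4 CPM in the YFP-negative ones, at least 25.6-fold lower. Stambp, an endosomal deubiquitinase, was at 0, 0 and 0.185 CPM against 7.71, 9.53 and 17.2, at least 20.0-fold lower. Mettl23, a methyltransferase-like gene, measured 3.33, 1.09 and 0.740 against 19.8, 39.5 and 22.6. DESeq2 called all 12 and limma voom 0, and the edgeR adjusted p ran from 0.503 to 0.626. Endoderm exceeded the YFP-positive mean in all 12, and the YFP-positive mean of Tcp11l1, Kit, Fbxo41 and Stambp was under 3% of the endoderm mean. The 12 were chosen for low YFP-positive levels, so a higher endoderm mean is partly set by that choice. Endoderm averaged 1.69 CPM for Fbxo41 and 4.39 for Stambp, below the YFP-negative means of 14.7 and 11.5. Among the genes under 3%, only Kit had an endoderm mean above the YFP-negative mean. Exons of Stambp, Mettl23, Heph, Ranbp17 and Ash1l overlap a gene on the opposite strand, and since the strand setting is not given in the sources used here, their counts are uncertain.

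**Figure D2:**
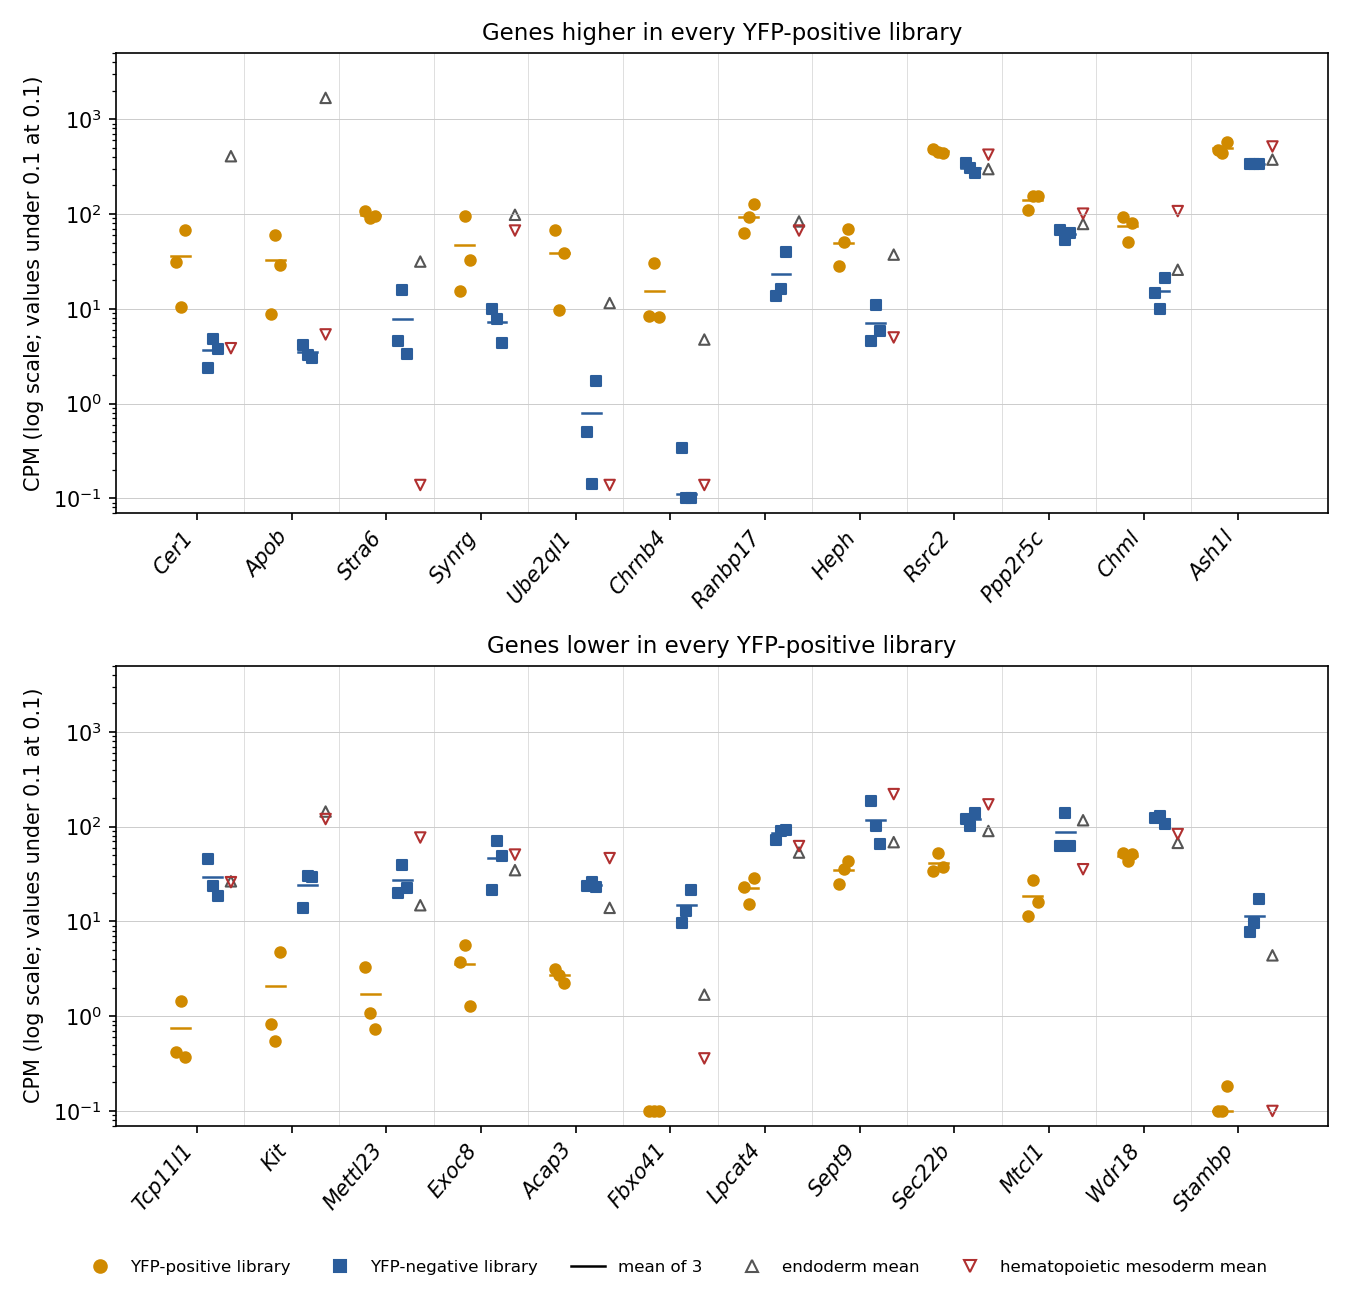
Level of the 12 higher (top) and 12 lower (bottom) named genes in each cardiac mesoderm library, in CPM on a log axis with values under 0.1 drawn at 0.1; lines are means of 3 libraries and open triangles the means of endoderm and hematopoietic mesoderm. No YFP-positive library overlaps a YFP-negative one, and Stra6 lies above the endoderm mean while Cer1 and Apob lie below it.

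Organizer and endoderm regulators more often had higher than lower levels in the YFP-positive fraction. Of 28 such genes 26 were tested, of which 19 were higher and 6 lower, with a median log2 fold change of 1.17 beside 0.03 over all genes. The higher genes made up 73.1% of the list, beside 51.4% of all tested genes. By edgeR 6 of the 26 were higher and 1 lower at an unadjusted p under 0.05, beside 2.72% and 4.77% of all tested genes. After adjustment 0 passed. The libraries did not overlap for 3 higher and 1 lower gene, 11.5% and 3.85% of the list, beside 4.32% and 4.41% of all genes. Without YFP-positive replicate 3 the median was 0.22 and 16 of 26 were higher, so that the size of the median depended on this library. It was 0.53 when a mean of 5 CPM was required and 0.42 with the 6 libraries fitted alone. Lhx1, a regulator of the anterior streak and organizer, measured 546, 386 and 689 CPM against 238, 250 and 368, and its log2 fold change of 0.92 had an edgeR adjusted p of 0.848. Gata4, shared by endoderm and heart, measured 338, 303 and 433 CPM against 245, 300 and 258.

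Visceral endoderm and plasma protein genes also had more higher than lower levels in the main fit. Of 30 genes 24 were tested, 15 higher and 9 lower, with a median log2 fold change of 0.83, which was 0.18 without YFP-positive replicate 3 and -0.12 when a mean of 5 CPM was required. With the minimum of 5 CPM, Apob alone was free of overlap, 4.17% of the list and close to the 4.32% of all genes. Cubn, described above, also separated but was under that minimum, at 3.28 CPM in YFP-positive replicate 2. Dab2, an endocytic adaptor of this tissue, measured 207, 208 and 148 CPM against 150, 152 and 113, which overlap at 1 library.

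Signals of the Wnt and FGF families more often had lower than higher levels with a Foxa2 history. Of 41 genes 36 were tested, 12 higher and 24 lower, with a median log2 fold change of -0.20, and 1 higher and 4 lower genes did not overlap, 2.78% and 11.1% of the list beside 4.32% and 4.41% of all genes. The single higher gene was Sfrp1, a secreted Wnt antagonist, at 205, 352 and 321 CPM against 38.7, 41.2 and 17.4. Its log2 fold change was 3.18 ± 0.91, with an edgeR adjusted p of 0.626, and DESeq2 gave no adjusted p. Sfrp1 averaged 545 CPM in endoderm and 36.5 in hematopoietic mesoderm, and its log2 fold change was 3.10 without YFP-positive replicate 3. Dkk1, another secreted Wnt antagonist, went the other way, at 12.7, 1.82 and 11.5 CPM against 43.9, 38.5 and 38.1, although endoderm held 192 CPM of it.

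The lower ligands included Wnt5b, which signals mainly outside the beta-catenin route, at 0, 0 and 0.370 CPM against 16.3, 6.03 and 11.3. This was at least 19.5-fold lower against the floor, with an edgeR adjusted p of 0.626 and a DESeq2 adjusted p of 0.0892. Its relative Wnt5a, named after its values were seen, measured 84.9, 235 and 171 CPM against 246, 264 and 247. Fgf15, an FGF ligand of the early embryo, measured 7.08, 20.4 and 15.7 CPM against 46.8, 35.7 and 42.0, and 2 genes overlap its exons on the other strand. Each of these ligands was lower in all 3 YFP-positive libraries.

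Nodal and BMP signals were close to even apart from Cer1. Of 36 genes 33 were tested, 19 higher and 14 lower, with a median log2 fold change of 0.09, and 4 higher genes and 1 lower gene did not overlap, 12.1% and 3.03% of the list beside 4.32% and 4.41% of all genes. Bmpr1a, a BMP receptor, measured 603, 588 and 521 CPM against 494, 466 and 454, a log2 difference of 0.27. Id3, a BMP target, met the other fraction within rounding, at 89.7, 107 and 94.8 CPM against 89.7, 73.4 and 62.9. Fst, the activin and BMP antagonist follistatin, was lower at 38.9, 5.83 and 21.7 CPM against 51.3, 44.3 and 67.6. Antagonists thus differed in direction, with Cer1 and Sfrp1 higher and Dkk1 and Fst lower.

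The Notch pathway, which the title of the series concerns, showed no lean. Of 40 genes 36 were tested, 19 higher and 17 lower, with a median log2 fold change of 0.16 that ran from -0.09 to 0.31 when single libraries were left out. The ligand Jag1 was the only member counted as free of overlap, 2.78% of the list beside 4.32% of all genes. Jag1 measured 32.1, 103 and 184 CPM against 27.7, 28.4 and 21.1. It varied widely among the YFP-positive libraries, and its log2 fold change of 2.05 had an SE of 1.13 (edgeR adjusted p = 0.742). Notch2, the receptor, measured 422, 267 and 201 CPM against 326, 364 and 334, and Mib1, the ubiquitin ligase that activates Notch ligands, 299, 430 and 426 against 495, 498 and 394. Both overlapped.

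Retinoic acid genes were spread over both directions. Of 22 genes 18 were tested, 8 higher and 10 lower, with a median log2 fold change of -0.06. The libraries did not overlap for 1 higher and 1 lower gene, each 5.56% of the list, beside 4.32% and 4.41% of all genes. Stra6, described above, was the higher one. The nuclear receptors Rara (51.2, 52.3 and 108 CPM against 82.6, 65.0 and 51.9) and Rxra (25.2, 60.9 and 22.9 against 67.5, 110 and 47.5) overlapped.

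**Figure D3:**
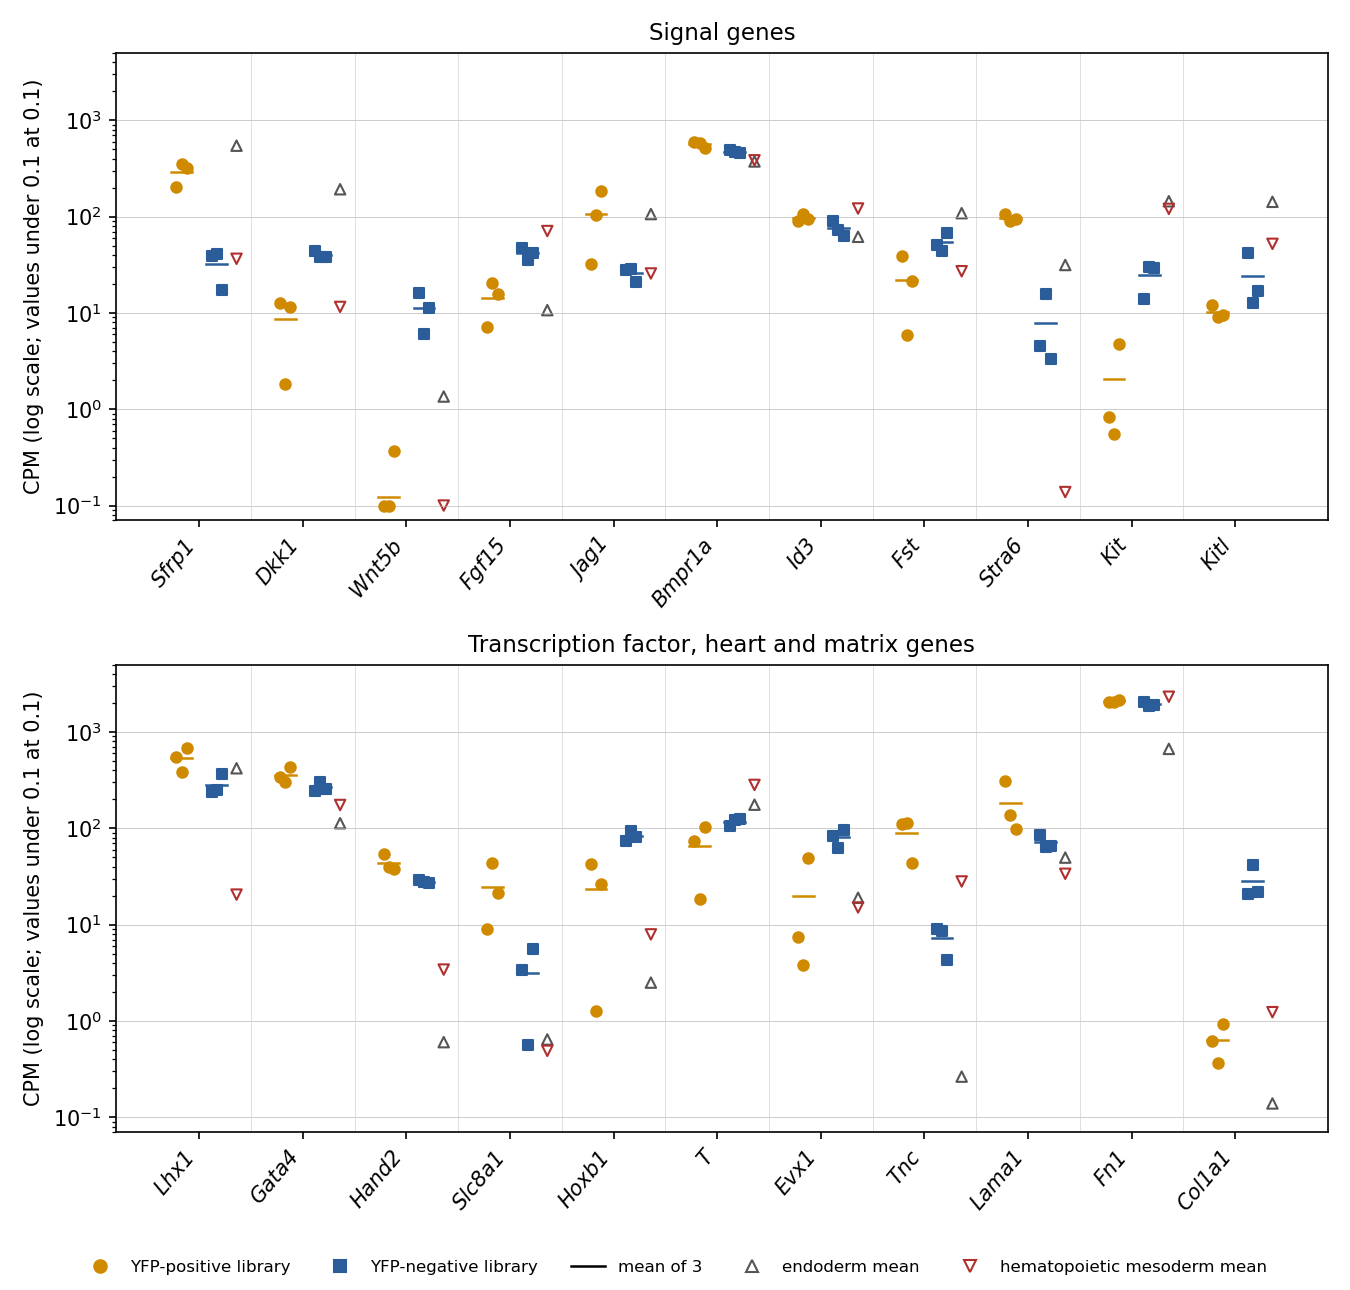
Level of 11 signal genes (top) and 11 transcription factor, heart and matrix genes (bottom) in each cardiac mesoderm library, in CPM on a log axis with values under 0.1 drawn at 0.1; lines are means of 3 libraries and open triangles the means of endoderm and hematopoietic mesoderm. Sfrp1, Stra6 and Tnc stand higher and Wnt5b and Col1a1 lower in all YFP-positive libraries, whereas Id3 meets at 89.7 CPM.

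Heart regulators were shared by the fractions. Of 31 cardiac transcription factors 27 were tested, 15 higher and 12 lower, with a median log2 fold change of 0.03, and 2 higher genes did not overlap, 7.41% beside 4.32% of all genes. These were Gata4 and Hand2, a regulator of heart and limb that measured 54.5, 39.7 and 38.1 CPM against 29.2, 27.5 and 27.4. Hand2 was almost equal within the YFP-negative fraction, and its log2 fold change was 0.66 ± 1.12 (edgeR adjusted p = 0.978). Tbx20 measured 558, 664 and 344 CPM against 408, 409 and 349, and Tbx3 292, 471 and 425 against 437, 427 and 480. Tbx5, a first heart field factor named here after its values were seen, measured 20.2, 85.5 and 71.1 CPM against 0, 4.90 and 30.0. It overlapped at 1 library.

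First heart field, ventricular and sarcomere genes were low or not yet detected. Of 27 genes 16 were tested, 10 higher and 6 lower, with a median log2 fold change of 0.23, or -0.01 under limma voom. By edgeR 0 were higher and 3 lower at an unadjusted p under 0.05, beside 2.72% and 4.77% of all tested genes. Slc8a1, the sodium-calcium exchanger of early cardiomyocytes, was the member without overlap, 6.25% of the list beside 4.32% of all genes. Slc8a1 measured 8.95, 43.6 and 21.5 CPM against 3.35, 0.560 and 5.65, or 2.94 ± 1.70 as a log2 difference (edgeR adjusted p = 0.757). It averaged 0.644 CPM in endoderm and 0.490 in hematopoietic mesoderm, below the mean of either cardiac mesoderm fraction. Myl7, an atrial and early heart tube myosin light chain, measured 144, 37.4 and 112 CPM against 50.3, 47.4 and 43.6, and Ttn 54.5, 9.66 and 91.4 against 54.1, 67.3 and 20.7. In both, YFP-positive replicate 2 was below all YFP-negative libraries.

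Posterior heart field and Hox genes had the lowest median of the heart lists. Of 20 genes 13 were tested, 4 higher and 9 lower, with a median log2 fold change of -0.47, and -1.05 without YFP-positive replicate 3. Hoxb1, a Hox gene of the posterior second heart field, measured 43.1, 1.28 and 26.5 CPM against 74.1, 93.2 and 82.0, or -1.82 ± 1.67 as a log2 difference (edgeR adjusted p = 0.907). Foxf1, a factor of lateral and extraembryonic mesoderm, measured 155, 161 and 56.3 CPM against 174, 212 and 129.

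Genes of the streak and of nascent mesoderm included 4 that were lower without overlap, 14.8% of the 27 tested of 30, beside 4.41% of all genes. Another 2, 7.41%, were higher without overlap, beside 4.32%. In all, 12 were higher and 15 lower, and the median log2 fold change was -0.16. T, the pan-mesodermal factor Brachyury, measured 73.7, 18.4 and 104 CPM against 105, 121 and 124, so that replicate 3 came near the YFP-negative range. Evx1, a posterior streak factor, measured 7.49, 3.83 and 48.9 CPM against 82.4, 62.2 and 96.6, or -2.00 ± 1.24 as a log2 difference (edgeR adjusted p = 0.781), and -3.83 without YFP-positive replicate 3. The markers Eomes and Mixl1 overlapped, at 489, 340 and 453 CPM against 383, 311 and 408 and at 168, 147 and 352 against 261, 227 and 328. Among 22 of 24 tested epiblast genes, 13 higher and 9 lower, Tdgf1, the Nodal co-receptor, measured 376, 327 and 367 CPM against 270, 228 and 307. Klf4, a pluripotency factor, was lower at 12.3, 13.3 and 8.14 CPM against 23.6, 19.1 and 13.9.

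Matrix genes held some of the widest differences. Of 40 migration, adhesion and mesenchyme genes 37 were tested, 22 higher and 15 lower, with a median log2 fold change of 0.10. The libraries did not overlap in 4 higher and 2 lower genes, 10.8% and 5.41% of the list, beside 4.32% and 4.41% of all genes. Tnc, the matrix protein tenascin C, measured 110, 113 and 43.5 CPM against 9.05, 8.55 and 4.35, or 3.60 ± 1.41 as a log2 difference (edgeR adjusted p = 0.626), and DESeq2 gave no adjusted p. Col1a1, a chain of type I collagen, measured 0.624, 0.365 and 0.925 CPM against 20.6, 42.0 and 21.9, or -5.42 ± 1.67 as a log2 difference (edgeR adjusted p = 0.626, DESeq2 adjusted p = 0.0174). Endoderm stood at 0.264 CPM for Tnc and 0.139 for Col1a1, so that the YFP-positive level of Tnc lay away from endoderm and that of Col1a1 near it.

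Basement membrane and fibronectin genes differed less. Lama1, a laminin chain, measured 308, 137 and 98.3 CPM against 86.3, 63.6 and 65.5, and its log2 fold change of 1.34 dropped to 0.71 without replicate 1. Fn1, fibronectin, measured 2041, 2049 and 2143 CPM against 2032, 1855 and 1922, a log2 fold change of 0.10 ± 0.10. Exons of Tnc, Fn1, Bmpr1a, Fst, Evx1, Hand2, Slc8a1, Foxf1, Tbx3, Ttn, Runx1, Dab2, Ccna2 and Pdgfra overlap a gene on the opposite strand, so their counts carry the same uncertainty.

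Hematopoietic and endothelial genes tracked single libraries and not the fractions. Of 28 genes 21 were tested, 8 higher and 12 lower, with a median log2 fold change of -0.53, and 0 were free of overlap. Tal1, the blood and endothelial regulator, measured 13.7, 174 and 22.0 CPM against 61.3, 85.8 and 19.1. Runx1 and Gata2, regulators of blood formation, followed the same order in the YFP-positive libraries, at 4.79, 96.4 and 22.9 CPM and at 4.79, 73.8 and 15.2 CPM. Without YFP-positive replicate 2 the list median was -1.63 with 2 of 21 higher, and without YFP-negative replicate 1 it was 0. It was 0.10 when a mean of 5 CPM was required. Hematopoietic mesoderm averaged 366 CPM for Tal1 and 733 for Runx1.

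The other lists stayed near the median of all genes or held few tested members. Of 15 extraembryonic mesoderm genes 6 were higher and 9 lower, and of 12 germ cell and Kit signal genes 5 were higher and 7 lower. Kit and Kitl, both lower, were the 2 without overlap, 16.7% of the latter list beside 4.41% of all genes. Paraxial and intermediate mesoderm genes numbered 4 higher and 6 lower. The 2 without overlap, 20% of the list beside 4.32% of all genes, were Lhx1 and Cer1, both higher and both described above. Neural and surface ectoderm genes had a median log2 fold change of 0.65 over 10 genes, which was 0 without YFP-positive replicate 3. Stress and early response genes had a median of 0.19, with 12 higher and 6 lower. In the replication and mitosis list, 17 of 26 were higher with a median of 0.08. Rrm2, a subunit of ribonucleotide reductase, measured 421, 427 and 352 CPM against 337, 301 and 302, and Ccna2, cyclin A2, 420, 391 and 385 against 343, 276 and 326. Cdc6, a replication licensing factor, was lower in each YFP-positive library, at 80.3, 120 and 83.5 CPM against 149, 123 and 121.

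**Figure D4:**
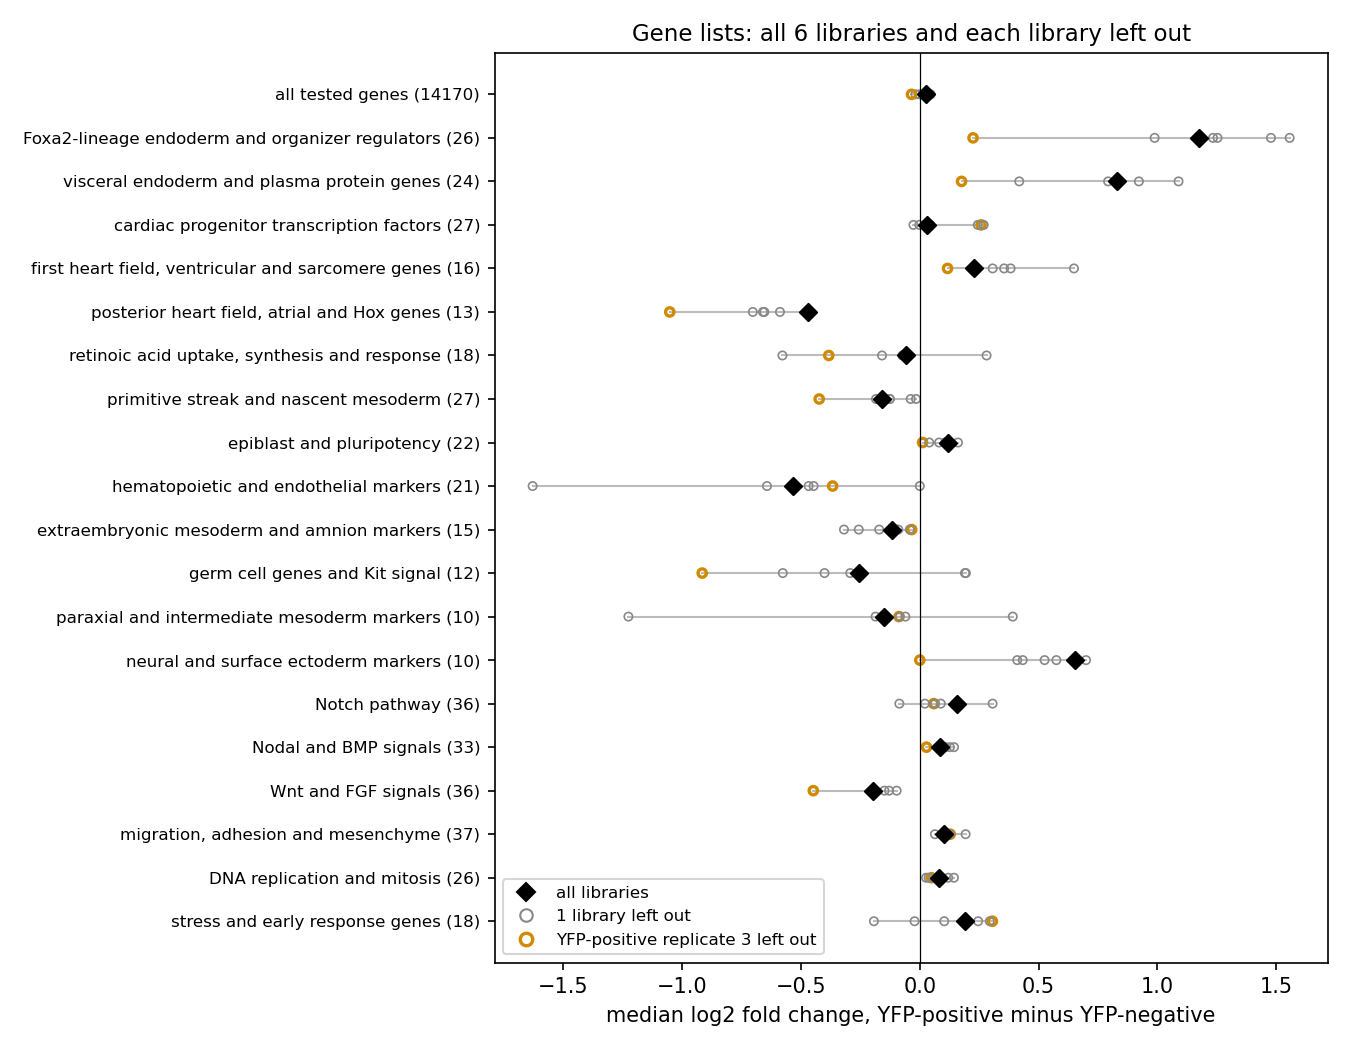
Median log2 fold change (YFP-positive minus YFP-negative) of the tested genes of each list, with the number tested in parentheses; diamonds use all libraries, circles leave out 1 library and orange circles leave out YFP-positive replicate 3. The organizer list goes from 1.17 to 0.22 and the visceral endoderm list from 0.83 to 0.18 without that library, whereas the Nodal and BMP list stays between 0.03 and 0.14.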

How the data were processed

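RNA sequencing covered 12 libraries of 4 cell types with 3 replicates each, grouped by title. The deposited files hold raw read counts for 38924 genes and 5 summary rows per library. Alignment with STAR 2.5.0a to mm10 and counting with HTSeq 0.6.0 are listed in the submitters' processing notes, while the annotation release and strand setting are not given in the sources used here. In the 6 cardiac mesoderm libraries genes took 18.3% to 20.7% of reads, and the summary rows, which were removed, took the rest (38.4% to 43.6% in no gene, 35.1% to 40.8% not aligned to a single place). Genes with near-identical copies are thus undercounted.

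Counts were fitted with edgeR 4.0.16 (R 4.3.3), with TMM scaling, the default expression filter, 1 coefficient per cell type over all 12 libraries and 8 residual degrees of freedom, and Benjamini-Hochberg adjustment over 14170 genes. Alternatives were RLE scaling, other filters, DESeq2 1.42.0, limma 3.58.1 voom, the 6 libraries alone, a replicate block, thinning, and leaving out single libraries. CPM values are TMM-scaled.

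Named genes were the first 12 in each direction by edgeR p-value among genes without overlap and with at least 5 CPM in every library of the higher fraction, predicted genes left out, with Foxa2, Pdgfra, Kdr, Epcam and Mesp1, and up to 4 per list (19 lists), first those without overlap and then the most abundant. A few genes that meet this rule are not reported here. The comparison, the lists and this rule were chosen with earlier results of these data known. Genes called by edgeR between endoderm and hematopoietic mesoderm were used as a readout only. Floors of 3 counts cover counting error alone, because the reads were amplified and carry no molecular identifiers. Positions are from GENCODE vM21 (GRCm38) and promoters from RefSeq (GRCm38.p6).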

Additional observations from a re-analysis of the deposited data

How the results depend on the processing

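The count of 0 genes in edgeR at an adjusted p of 0.05 was the same under RLE scaling (1059 genes at an unadjusted p under 0.05), with a mean of at least 5 CPM (583), with the 6 libraries alone (649), after thinning (1009) and under limma voom (898). It was 2 without an expression filter (Cer1 and Apob), 108 in DESeq2 and 216 in DESeq2 on all genes with a count, the last chosen after seeing the data. Leaving out single libraries gave 0 to 1. Genes without overlap numbered 1090 to 1533 under the other filters, scalings and minimum levels, beside 1237, and 2039 to 2726 with 1 library left out, where fewer libraries have to separate. Deposited files of same-numbered libraries carry the same date in their names, and the labels do not say what it marks. Same-numbered libraries of the fractions did not deviate together, with correlations of 0.0187, -0.0120 and 0.0246, and 4 of 6 libraries correlated best with their own number. With the replicate number as a block, edgeR called 0 genes over 12 libraries (817 at an unadjusted p under 0.05) and 0 over 6 (560).

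Of 1392 alternative values for 93 named genes, 1322 kept direction and side of the threshold, 28 passed the threshold where the main value did not, and 42 changed direction, all in genes whose fractions overlapped; the cause was not tested. Under limma voom the log2 difference was -0.016 for Hand1, -0.23 for Ttn, -0.050 for Tal1, -0.28 for Runx1, -0.090 for Ahnak and -0.051 for Maml1. With the replicate block over 6 libraries it was -0.15 for Ttn, -0.25 for Tal1, -0.41 for Runx1 and -0.067 for Ahnak, and over 12 libraries -0.055 for Runx1. With single libraries left out it ran over 0 for Pdgfra (-0.0099 to 0.41), Krt18 (-0.87 to 0.16), Tbx3 (-0.32 to 0.00077), Hand1 (-0.098 to 0.077), Ttn (-0.56 to 0.62), Meis2 (-0.45 to 0.062), Rara (-0.36 to 0.27), Tal1 (-1.63 to 0.83), Runx1 (-1.26 to 0.84), Ahnak (-0.30 to 0.46), Ifitm1 (-0.0057 to 0.47), Ifitm3 (-1.59 to 0.85), Foxc1 (-0.69 to 1.31), Foxc2 (-0.49 to 0.46), Notch2 (-0.55 to 0.012), Maml1 (-0.37 to 0.43), Egr1 (-0.24 to 1.25) and Dnajb1 (-0.051 to 0.25). Of 285 alternative list medians, 24 moved by more than the spread between replicates and 18 had the other sign, in 11 lists. The depth limits statements on genes near 3 counts, or 0.420 to 0.624 CPM.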
